A study of Mus musculus with 7 samples.

Results

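Transcripts of leukocyte integrin chains and of the P-selectin ligand were followed in mouse granulocytes, the leukocyte class of neutrophils, eosinophils and basophils. The genes were the rows of the deposited count table whose Ensembl identifiers map to Itgam, Itgal, Itgax, Itga4, Itgb1, Itgb2, Itgb2l, Itgb7 and Selplg, or 9 of 51789 genes. Each had 1 row, and all 9 passed the filter on low counts. RNA came from granulocytes labelled knockout for Alox15 (KO, n = 3) or wild type (WT, n = 4), all labelled untreated. Alox15 encodes a lipoxygenase that oxygenates polyunsaturated fatty acids. PolyA RNA was read with a QuantSeq kit, a method that reads one tag per transcript close to its polyA tail. Left unstated by the labels are the tissue of origin, the age and strain of the animals, the sorting of the cells and the kind of Alox15 allele. Since the labels do not tie replicates to separate animals either, the p-values rest on the spread among 7 libraries, some of which may be technical.

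An integrin is a pair of an alpha and a beta chain that holds a leukocyte to other cells or to matrix. Neutrophils first roll along activated endothelium, where selectins bind the glycoprotein PSGL-1 encoded by Selplg, and then arrest and crawl on beta 2 integrins. The beta 2 chain Itgb2 pairs with Itgal (LFA-1), Itgam (Mac-1, CD11b) or Itgax (CD11c), whose endothelial partners include ICAM-1. The alpha 4 chain Itga4 pairs with Itgb1, which binds VCAM-1, or with Itgb7, which binds the mucosal addressin MAdCAM-1.

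Total counts ran from 3228292 to 5348256 in KO libraries and from 3606843 to 5657192 in WT libraries. Alox15 had 1 count in KO 1 and 0 counts in the other 6 libraries, which include every WT library. With no tag in WT it checks nothing about the labels, and its tags may also lie outside the deleted part. The summed level of the 10 neutrophil markers, all detected, was 22855, 14347 and 2017 CPM (tag counts scaled to the same library size, with TMM factors) in KO 1, 2 and 3, against 26571, 2562, 11045 and 12057 CPM in WT 1 to 4. KO 3 and WT 2 therefore stood apart with few neutrophil transcripts. The 12 T and NK cell markers summed to 405, 494 and 980 CPM in KO and to 332, 690, 510 and 667 CPM in WT. KO 3 and WT 2 had the highest sums, with WT 4 close to WT 2. Among single markers, Cd3g and Trbc2 had KO 3 and WT 2 as their 2 highest libraries and the others did not. Cd3e was highest in WT 4 (137 CPM) and Trac in WT 3 (85.2 CPM), and Cd3d gave 441 CPM of the KO 3 sum. The sum of stromal, endothelial and epithelial markers was also highest in KO 3 and WT 2, with 181, 124 and 208 CPM in KO and 84.6, 191, 67.5 and 76.8 CPM in WT. Only the collagen genes Col1a1 and Col3a1 of this list were each highest in KO 3 and WT 2. Pecam1 (39.7 CPM) and Sparc (37.7 CPM) were highest in KO 1, and Cdh5 reached at most 0.397 CPM. Of the T and NK cell list Ncr1, the defining receptor of NK cells, was at 0 in all 7 libraries. The 10 monocyte and macrophage markers summed to 1261, 631 and 203 CPM in KO and to 493, 173, 426 and 508 CPM in WT. KO 3 and WT 2 were thus the 2 lowest libraries for these as well, and KO 1 and KO 2 lay above every WT library. Markers of the other granulocytes were low, with eosinophil markers at 1.17 to 13.6 CPM in KO and 1.25 to 17.9 CPM in WT (Epx at 0 throughout) and basophil and mast cell markers at 5.45 to 13.6 CPM in KO and 1.79 to 24.7 CPM in WT, all from Cpa3. B cell markers summed to 44.1 to 113 CPM in KO and 4.18 to 80.1 CPM in WT. The labels' sample codes had another stem in KO 2 and KO 3 than in the other 5 libraries, and what the stem stands for is not stated. The part of these differences in the results was not tested. In bulk RNA, fewer cells of a type and less RNA per cell cannot be told apart.

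Across the 9 genes, the spread within each genotype exceeded the difference between genotypes, and 0 of 9 passed edgeR's quasi-likelihood test of KO against WT at an adjusted p under 0.05, as did 0% of all 12506 genes tested. KO 3 and WT 2 were the 2 lowest libraries for 7 of the 9 genes, the exceptions being Itgb2l and Itgb7. Over all genes tested these were the 2 lowest libraries for 16.2%, a pair that was singled out after the values were seen. The SD of log2 CPM over the 7 libraries had a median of 1.31 over the members, against 0.62 over all genes tested. Itgal (0.53) and Itgb2 (0.71) varied least among the 9, and Itgb2l (1.80), Itga4 (1.64) and Itgam (1.59) most.

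**Figure D1:**
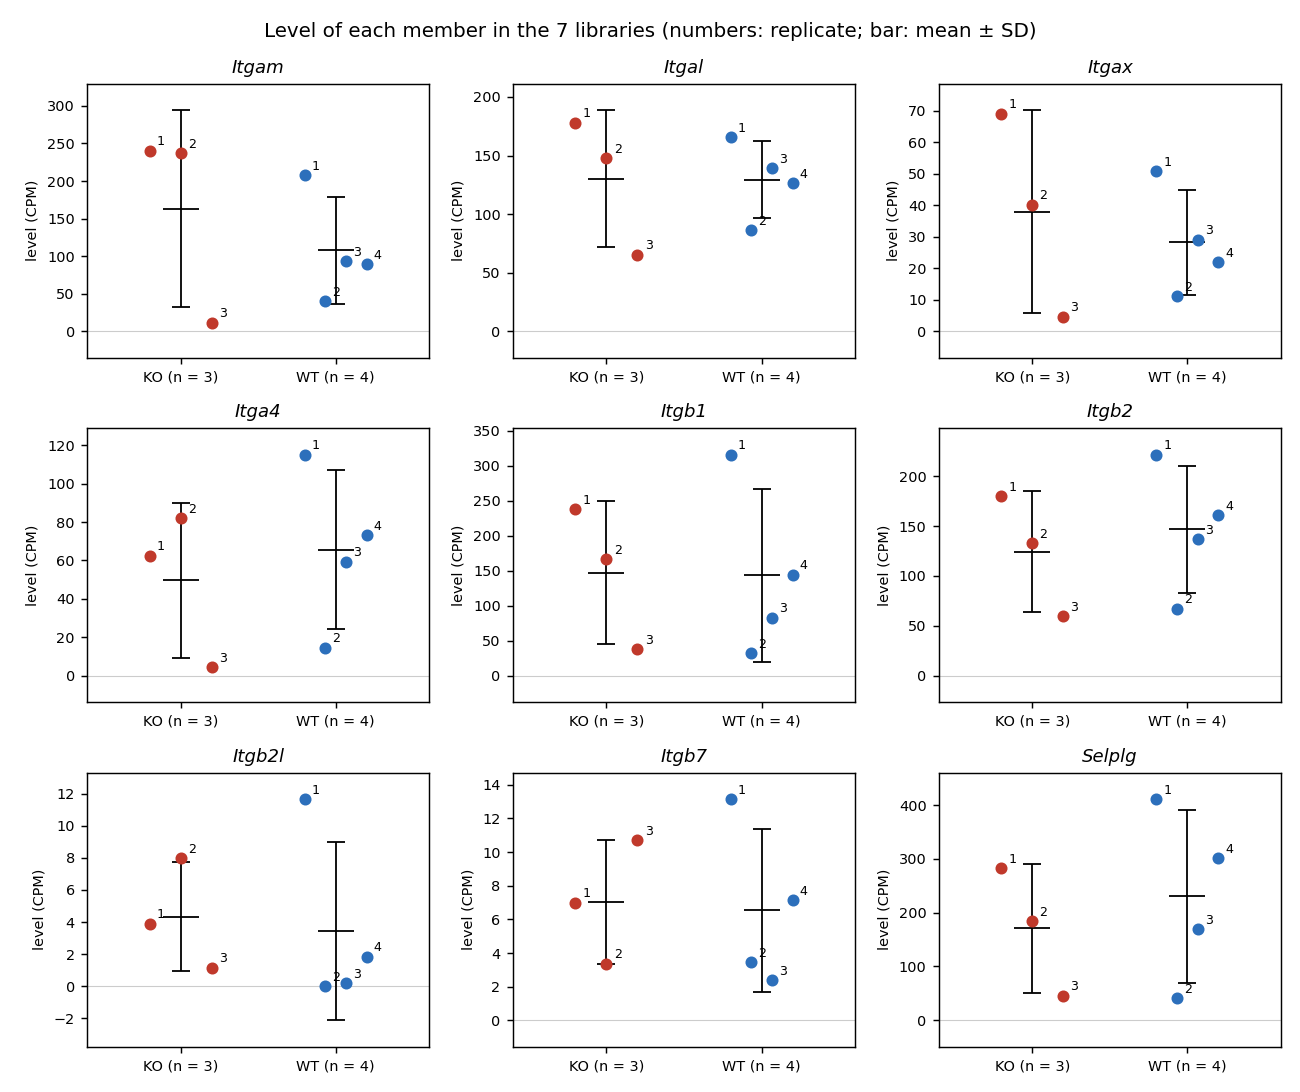
Level of each of the 9 genes in CPM (y axis) in KO and WT libraries, 1 point per library with its replicate number and the mean ± SD of each genotype as a bar. KO 3 and WT 2 lie at the bottom of their genotype for most genes, as for Itgam with 11.7 and 39.8 CPM, and the genotypes overlap in every panel.

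The alpha chains of beta 2 integrins differed in how low they stood in KO 3 and WT 2. These libraries were poor in neutrophil transcripts and in monocyte and macrophage transcripts. Itgam (ENSMUSG00000030786, plus strand of chromosome 7, 128062640 to 128118491, GRCm38), the alpha chain of Mac-1 by which neutrophils bind ICAM-1, fibrinogen and complement fragments, stood at 240.3, 237 and 11.7 CPM in KO libraries 1 to 3, against 207, 39.8, 93.6 and 89.5 CPM in WT libraries 1 to 4. KO 1 and KO 2 lay above every WT library and KO 3 below every one, so the range was 20.6-fold over the 7 libraries. The mean was 163 ± 131 CPM (SD, n = 3) in KO and 108 ± 70.9 CPM (SD, n = 4) in WT. Gm49368, a gene annotated over Itgam on the same strand, had 0 counts in KO 3 and WT 4 and 31 to 99 counts in the other libraries. The last 500 bases of the longest Itgam transcript had no match of at least 50 bases and 95% identity in transcripts of another gene, and adding the counts of Gm49368 to those of Itgam gave a log2 fold change of 0.56 in place of 0.60.

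Itgax (ENSMUSG00000030789, plus strand of chromosome 7, 128129547 to 128150657), the CD11c chain known from dendritic cells and some macrophages and also present on neutrophils, had 69.0, 40.1 and 4.67 CPM in KO, against 50.8, 11.1, 29.0 and 22.0 CPM in WT. KO 1 was the highest library and KO 3 the lowest, on either side of the whole WT range. Itgal (ENSMUSG00000030830, plus strand of chromosome 7, 127296260 to 127335138), the alpha chain of LFA-1, which lymphocytes as well as neutrophils carry, had 178, 148 and 65.2 CPM in KO, against 166, 86.3, 139 and 127 CPM in WT. Its 7 libraries spanned 2.73-fold, and KO 3 was the only one below the WT range.

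The promoters of genes that followed each other across libraries, and of 2 that did not, are shown from RefSeq for GRCm38.p6, where 6 of the 9 genes matched. Each runs from 250 bases before the transcript start to 50 bases after it, read 5′ to 3′ on the gene's strand. Capitals mark GAGGAAG or its reverse complement CTTCCTC, the core of sites of PU.1, an ETS factor of myeloid cells. Itgam (plus strand, chr7:128062390-128062689) and Itgax (plus strand, chr7:128129300-128129599) lie beside each other and had library patterns that were each other's closest among the 9 genes. Itgb2l (minus strand, chr16:96443565-96443864) and Itgb7 (minus strand, chr15:102231886-102232185) lay far from every other member, both at low counts.
Itgam: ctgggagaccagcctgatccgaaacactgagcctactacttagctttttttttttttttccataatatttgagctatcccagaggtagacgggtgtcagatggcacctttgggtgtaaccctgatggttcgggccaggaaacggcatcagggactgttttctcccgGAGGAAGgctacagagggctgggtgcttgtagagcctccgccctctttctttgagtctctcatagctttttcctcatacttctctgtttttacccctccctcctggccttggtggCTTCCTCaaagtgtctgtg
Itgax: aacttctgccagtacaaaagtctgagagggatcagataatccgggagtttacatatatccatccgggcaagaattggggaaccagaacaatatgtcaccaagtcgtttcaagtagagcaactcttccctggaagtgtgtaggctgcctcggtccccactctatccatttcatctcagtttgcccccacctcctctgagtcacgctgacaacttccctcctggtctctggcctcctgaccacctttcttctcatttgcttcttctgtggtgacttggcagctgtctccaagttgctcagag
Itgb2l: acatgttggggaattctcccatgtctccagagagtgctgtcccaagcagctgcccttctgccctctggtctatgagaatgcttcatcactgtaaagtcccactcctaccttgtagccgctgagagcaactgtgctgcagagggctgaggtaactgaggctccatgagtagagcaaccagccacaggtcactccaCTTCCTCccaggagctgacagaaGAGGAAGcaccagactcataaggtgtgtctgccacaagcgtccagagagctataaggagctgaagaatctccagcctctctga
Itgb7: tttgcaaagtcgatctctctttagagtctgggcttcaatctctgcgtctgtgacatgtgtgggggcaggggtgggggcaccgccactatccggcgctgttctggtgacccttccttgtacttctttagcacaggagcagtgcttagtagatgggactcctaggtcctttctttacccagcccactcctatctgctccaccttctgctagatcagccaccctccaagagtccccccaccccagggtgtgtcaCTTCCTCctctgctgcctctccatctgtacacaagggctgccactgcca
The core was found 2 times in Itgam, where one copy begins 84 bases before the start, and 2 times in Itgb2l, where the copies begin 56 and 33 bases before it. It was found once in Itgb7 and in none of Itgax, Itga4 and Itgb1. Of all 32851 promoters of this length, 13.6% held it on either strand. On either strand, the RUNX core TGTGGT (in 16.8% of promoters) was found in Itgax and Itga4, and the Sp1 box GGGCGG (in 35.7%) in Itgam, Itga4 and Itgb1. No match of these motifs overlapped another. A match describes letters in this window, not a bound site.

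Because a ratio of tags within a library does not depend on its scaling, the 3 partner chains of Itgb2 were also set against each other. Tags are not divided by transcript length, so shares are compared between libraries and not between genes. Of the tags of Itgal, Itgam and Itgax together, Itgam held 49.3% in KO 1 (Wilson 95% interval 47.3 to 51.3%), 55.8% in KO 2 (53.2 to 58.4%) and 14.3% in KO 3 (11.3 to 18.0%), against 48.9% in WT 1 (46.3 to 51.5%), 29.0% in WT 2 (26.1 to 32.1%), 35.7% in WT 3 (33.2 to 38.4%) and 37.6% in WT 4 (34.5 to 40.8%). The intervals cover counting error only. The KO libraries held both the highest and the lowest shares. Itgal took 80.0% in KO 3 (75.9 to 83.5%) and 62.9% in WT 2 (59.7 to 66.0%), the 2 highest, and 34.7 to 53.2% elsewhere. The ratio of Itgax to Itgam tags was 0.287, 0.169 and 0.40 in KO and 0.245 to 0.310 in WT, so the KO libraries lay on both sides of WT.

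**Figure D2:**
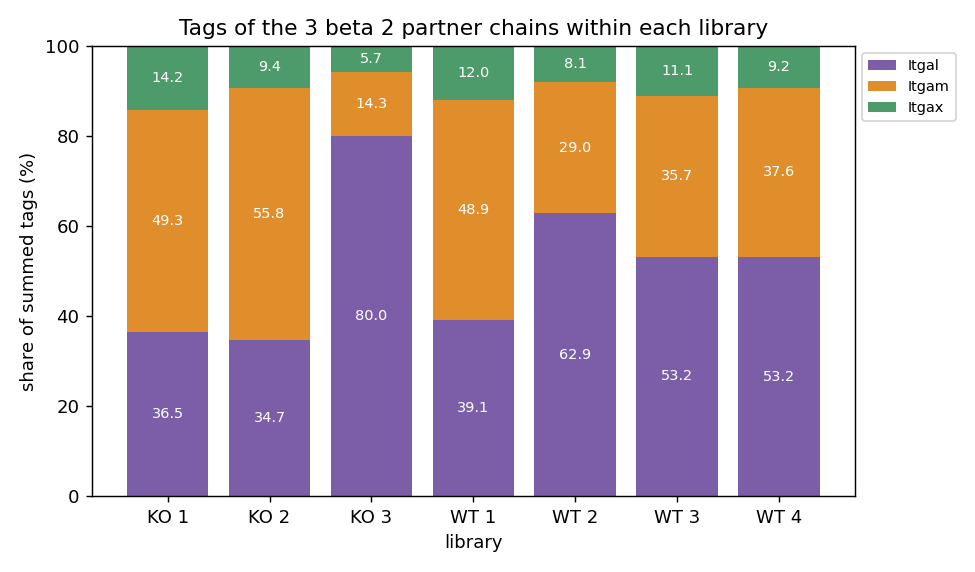
Share of each chain (y axis, percent) in the summed tags of Itgal, Itgam and Itgax within each library (x axis, KO then WT). Itgal makes up 80.0% in KO 3 and 62.9% in WT 2, and Itgam reaches 55.8% in KO 2.

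The beta 2 chain itself varied less over the libraries than Itgam. Itgb2 (ENSMUSG00000000290, plus strand of chromosome 10, 77530252 to 77565708), the CD18 chain that all beta 2 integrins share, had 180.0, 133 and 59.6 CPM in KO, against 221, 67.0, 137 and 161 CPM in WT. KO 3 was the lowest library and WT 1 the highest, the range was 3.72-fold, and the mean was 124 ± 60.7 CPM (SD, n = 3) in KO and 147 ± 63.8 CPM (SD, n = 4) in WT. Its last 500 bases matched transcripts of Gm14699 over 51 bases at 96.1% identity, so a few tags could be shared. Itgb2l (ENSMUSG00000000157, minus strand of chromosome 16, 96422288 to 96443619), a relative of Itgb2 known in the mouse as Pactolus and found on bone marrow granulocytes, had 3.89, 7.96 and 1.17 CPM in KO, against 11.7, 0, 0.199 and 1.85 CPM in WT.

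These Itgb2l levels rest on 20, 26 and 6 counts in KO and on 39, 0, 1 and 7 counts in WT. For WT 2 a count of 0 leaves room for a level of at most 0.470 CPM, that of 3 counts. Its 2 highest libraries were WT 1 and KO 2, and WT 2 and WT 3 were its lowest. Igsf5, annotated over Itgb2l on the other strand, had 0 counts in all 7 libraries. The last 500 bases of Itgb2l had no match of at least 50 bases and 95% identity in Itgb2 or any other gene's transcripts.

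Of alpha 4 and its 2 beta partners, Itga4 and Itgb1 were both highest in WT 1 and lowest in KO 3 and WT 2, whereas Itgb7 had another order. Itga4 (ENSMUSG00000027009, plus strand of chromosome 2, 79255426 to 79333123), the chain of VLA-4 that eosinophils, monocytes and lymphocytes use on VCAM-1, had 62.4, 82.1 and 4.48 CPM in KO, against 115, 14.7, 59.4 and 73.1 CPM in WT. With a 25.7-fold range it had the widest range of the 8 genes detected in every library, and KO 3 lay below every WT library. Cerkl, which overlaps the 3′ end of Itga4 on the other strand, had 4 to 44 counts per library. The strand setting of the counting is not stated, and reads of Itga4 and Cerkl may not be fully separated.

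Itgb1 (ENSMUSG00000025809, plus strand of chromosome 8, 128685654 to 128733200), the beta chain that also forms receptors for fibronectin, collagen and laminin, had 238, 166 and 37.8 CPM in KO, against 316, 31.9, 82.6 and 145 CPM in WT. The KO values lay inside the WT range. Itgb7 (ENSMUSG00000001281, minus strand of chromosome 15, 102215995 to 102231944), known from gut-homing lymphocytes, where it pairs with Itga4 or Itgae, had 7.0, 3.37 and 10.7 CPM in KO, against 13.1, 3.45, 2.38 and 7.15 CPM in WT. KO 3, the lowest library for Itga4, was the second highest for Itgb7, and all KO values lay inside the WT range. The counts behind Itgb7 were 11 to 55 in KO and 12 to 44 in WT. Itgb7 tags per Itgb1 tag were 0.0294, 0.0203 and 0.284 in KO, against 0.0417, 0.108, 0.0288 and 0.0495 in WT, so KO 3 and WT 2 stood above the other 5 libraries. In those 2 libraries the sum of T and NK cell markers was also highest. WT 4 was close to WT 2 in this sum (667 against 690 CPM) but not in the ratio (0.0495 against 0.108). The part of these markers in the ratio was not tested.

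Selplg (ENSMUSG00000048163, minus strand of chromosome 5, 113818536 to 113832644), which encodes PSGL-1 and is borne by neutrophils, monocytes and lymphocytes, had 283, 184 and 45.4 CPM in KO, against 411, 40.6, 169 and 301 CPM in WT. WT 1 and WT 4 lay above every KO library and WT 2 below every one, and the mean was 171 ± 119 CPM (SD, n = 3) in KO and 230.3 ± 161 CPM (SD, n = 4) in WT. Tags of Selplg per tag of Itgb2 were 1.57, 1.39 and 0.761 in KO, against 1.86, 0.605, 1.23 and 1.87 in WT, lowest again in WT 2 and KO 3.

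**Figure D3:**
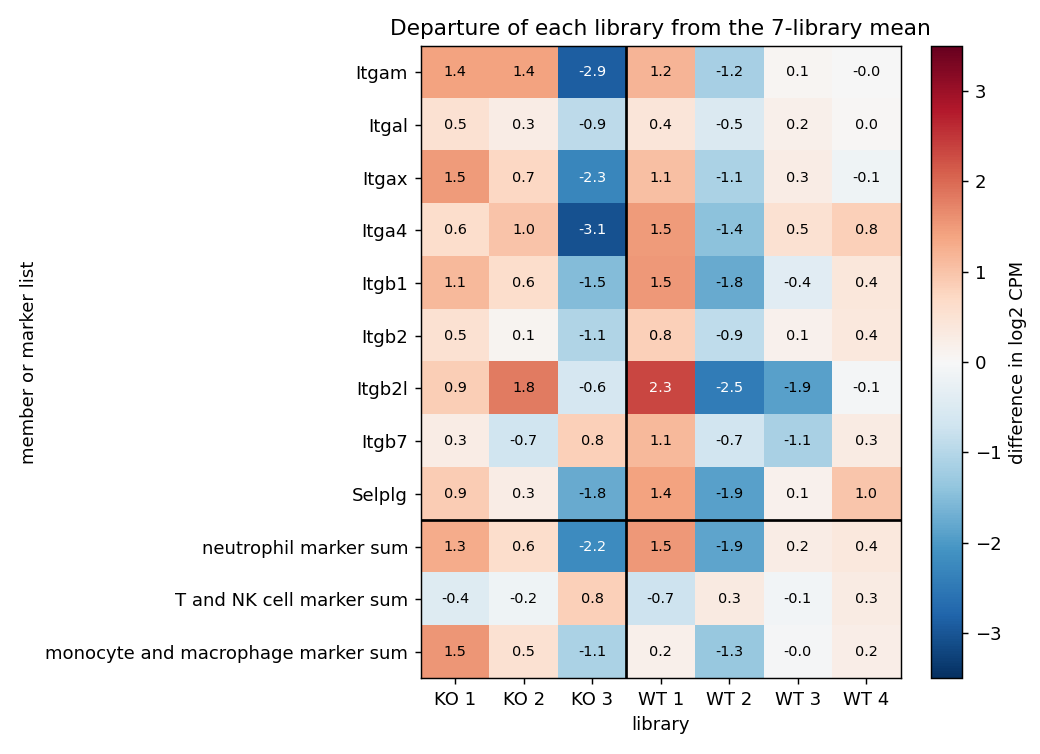
Difference of each library (columns, KO then WT) from the gene's mean over the 7 libraries in log2 CPM, for the 9 genes (rows above the line) and for the summed CPM of 3 marker lists (rows below it). Blue cells are below the mean, and KO 3 and WT 2 are blue for every gene but Itgb7, which is above its mean in KO 3.

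The likeness of each gene to others was measured as the root mean square difference in log2 CPM, centred on each gene's own mean, over the 7 libraries and among 8333 named genes at a mean log2 CPM of at least 3. Selplg lay closest to S100a8, a calcium-binding protein abundant in neutrophils (0.10), and Tyrobp, the DAP12 signalling adaptor (0.12). Itgam lay closest to Pygl, the liver-type glycogen phosphorylase (0.22), and Rtp4 (0.22), and Itgax to Tlr13, a receptor for bacterial ribosomal RNA (0.15), and Xylt1, a xylosyltransferase (0.17). Itgb1 lay closest to the transcription factor Klf3 (0.18) and to Zyx (0.19), the focal adhesion protein zyxin. Itgb2 was nearest to the histone gene Hist1h2bc (0.081) and the phosphatase gene Mtmr6 (0.098), and Itgal to the kinase gene Irak4 (0.10) and Pcf11 (0.10), a factor of transcript 3′ end processing. Itga4 was nearest to Phactr2 (0.22) and Ifi47 (0.24), the second an interferon-induced GTPase gene. Itgb7, with Rit1 (0.31) and Lrrc61 (0.32), and Itgb2l, with F10 (0.63) and Dgat2 (0.68), had no neighbour as close. Both lay below a mean log2 CPM of 3, at 2.63 for Itgb7 and 1.26 for Itgb2l. The part of counting error in their distances was not tested. Among the members, Itgal and Itgb2 were each other's nearest (0.26), as were Itgb1 and Selplg (0.35) and Itgam and Itgax (0.37). Itga4 was nearest to Itgam (0.52), and Itgb2l (0.93) and Itgb7 (0.93) lay far from every other member. The 7 libraries behind these distances also differ in the summed markers given above.

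The comparison of KO with WT asks which granulocyte transcripts differ by the Alox15 label, while Alox15 itself was not detected in WT. None of the 9 genes was called: 0 of 9 passed edgeR's quasi-likelihood test at an adjusted p under 0.05. By the same test 0 of 9 had an unadjusted p under 0.05. DESeq2 likewise called 0 of the 9, and 1 gene of the whole table. Over all 12506 genes 0% were called (0 higher, 0 lower), 154 genes or 1.23% had an unadjusted p under 0.05, and the smallest adjusted p was 0.99995. The KO and WT libraries overlapped for all 9 genes, where 3.13% of all genes tested had no overlap. The median log2 fold change of KO over WT was 0.038 over the 9 genes and 0.012 over all genes. By sign alone 6 of the 9 values were above 0, against 51.4% of all genes.

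The log2 fold change was 0.60 ± 0.86 (SE) for Itgam, with a 95% interval of -1.34 to 2.55, and 0.43 ± 0.78 for Itgax, with an interval of -1.33 to 2.20. For the remaining partner of Itgb2, Itgal, the log2 fold change of 0.010 ± 0.38 had an interval of -0.83 to 0.85, which spans 0.562 to 1.81 times the WT level. Itgb2 had a value of -0.24 ± 0.46 (-1.27 to 0.79). The interval of Itgb2l was the widest of the 9, with -2.96 to 3.68 around 0.36. Itga4 had -0.40 ± 0.88 (-2.39 to 1.59), Itgb1 0.038 ± 0.78 (-1.73 to 1.81), Itgb7 0.13 ± 0.73 (-1.51 to 1.76) and Selplg -0.43 ± 0.77 (-2.19 to 1.33). For 8 of the 9 genes the interval includes a 2-fold difference in at least 1 direction, which for Itgb2 is the lower one only; for Itgal it includes neither.

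With 1 library left out the sign changed for 7 of the 9 genes. The Itgam value ran from 0.21 to 1.10 and that of Selplg from -1.0 to -0.026, and neither changed sign. Itgax turned to -0.34 without KO 1, Itga4 to 0.094 and Itgb2 to 0.043 without KO 3, and Itgb7 to -0.36 without KO 3, -0.086 without WT 2 and -0.15 without WT 3. Itgb1 turned to -0.49 without KO 1, -0.060 without KO 2, -0.30 without WT 2 and -0.15 without WT 3. Itgal turned to -0.28 without KO 1, -0.091 without KO 2, -0.14 without WT 2 and -0.023 without WT 4, and Itgb2l to -0.41 without KO 2, -0.070 without WT 2 and -0.044 without WT 3. Among the 9 genes, the smallest unadjusted p in any setting was 0.0518, from edgeR for Itgam without KO 3. Leaving out both KO 3 and WT 2 gave 0.83 ± 0.41 (SE) for Itgam, 0.65 ± 0.45 for Itgax, 0.14 ± 0.33 for Itgal and -0.19 ± 0.36 for Itgb2. In those 5 libraries Itgb2l had 0.34 ± 1.28, Itga4 -0.24 ± 0.38, Itgb1 0.12 ± 0.50, Itgb7 -0.57 ± 0.92 and Selplg -0.37 ± 0.43, and 0 of the 9 were called by edgeR. KO 1 was the only KO library with the stem of the WT libraries, so stem and genotype could be separated only by it. With the stem as a term the value was 1.16 ± 1.21 for Itgam and 1.29 ± 0.99 for Itgax, and 0 of 9 were called.

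**Figure D4:**
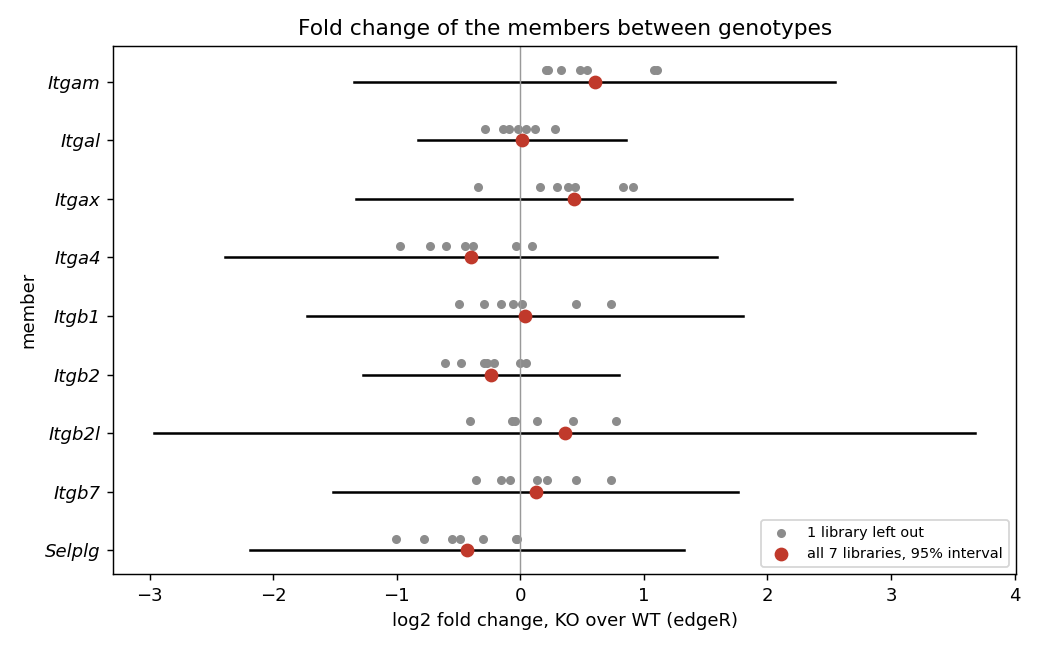
Log2 fold change of KO over WT (x axis) for the 9 genes, with the edgeR estimate from 7 libraries as a red point, its 95% interval as a line and the 7 estimates with 1 library left out in grey (6 for Itgb2l). All 9 intervals include 0, and the grey points of 7 genes fall on both sides of 0.

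The rest of the adhesion machinery was described by 6 lists with 112 genes, of which 111 were in the table and 82 passed the filter on low counts. No listed gene was called, with 0 higher and 0 lower in each list against 0% of all genes, and 2 had an unadjusted p under 0.05. Of the 82, 35 values lay above 0 and 47 below, with a median log2 fold change of -0.070. KO and WT did not overlap for 3 of the 82, where 3.13% of all genes had no overlap.

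Among other integrin chains 6 of 19 were tested, with 0 called. Itgav, the alpha V chain of vitronectin receptors, had 34.0, 37.7 and 7.01 CPM in KO, against 17.3, 20.2, 15.1 and 7.15 CPM in WT (log2 fold change 0.80 ± 0.58). Itga9, a relative of alpha 4, ran from 3.12 to 4.67 CPM in KO and from 0 to 2.12 CPM in WT without overlap, at few counts and with 1.87 ± 1.35. Itgae, which pairs with Itgb7 on mucosal T cells, had 0.779 to 2.14 CPM in KO and 1.59 to 6.57 CPM in WT (-1.26 ± 0.94). Itgb6 and Itgb8 had 0 counts in every library.

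Of the genes that activate integrins and link them to actin, 25 of 27 were tested, with 0 called. Rap1a, a small GTPase that switches integrins on, had 70.6, 52.1 and 59.2 CPM in KO, against 95.9, 70.0, 105 and 101 CPM in WT. Its log2 fold change of -0.61 ± 0.27 had an unadjusted p of 0.0446 that did not survive edgeR's adjustment (adjusted p = 0.99995). Actn1, the actin crosslinker alpha-actinin 1, averaged 126 ± 14.3 CPM (SD, n = 3) in KO and 172 ± 32.4 CPM (SD, n = 4) in WT, without overlap and with -0.44 ± 0.26. Flna, filamin A, which binds beta tails and competes with talin, had 0.38 ± 0.41. KO 3 and WT 2 were the 2 lowest libraries for 10 of these 25 genes.

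Of the signalling genes downstream of beta 2 integrins, 20 of 21 were tested, with 0 called and a median of -0.081. The smallest p values belonged to Vav3 (-0.32 ± 0.28), a guanine nucleotide exchange factor, the kinase gene Btk (-0.68 ± 0.92) and Ptk2b (-0.44 ± 0.72), which encodes the kinase Pyk2. KO 3 and WT 2 were the 2 lowest libraries for 14 of the 20 genes, or 70.0%, against 77.8% of the 9 members and 16.2% of all genes.

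For counter-receptors and ligands 9 of 16 genes in the table were tested, with 0 called. Pecam1, of endothelium, platelets and leukocytes, had 39.7, 37.7 and 31.5 CPM in KO, against 17.0, 22.7, 17.3 and 27.3 CPM in WT, without overlap and with an unadjusted p of 0.0322 that did not survive edgeR's adjustment (adjusted p = 0.99995). Fn1, fibronectin, had 75.0, 37.4 and 21.4 CPM in KO, against 6.87, 24.9, 31.0 and 25.4 CPM in WT (1.01 ± 0.55), and Ager had -1.36 ± 1.14. The markers of stromal, endothelial and epithelial cells, Pecam1 among them, had the sums given above, with Epcam at 0 throughout, and their part in the values of Pecam1 and Fn1 was not tested.

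Among selectins, their ligands and the enzymes that glycosylate them, 17 of 20 genes were tested, with 0 called. Fut7, the fucosyltransferase that completes the selectin-binding sugar on PSGL-1, stood at 0.194, 0.306 and 1.36 CPM in KO, against 4.48, 1.88, 0.795 and 2.12 CPM in WT, near the floor of detection (-1.81 ± 1.22). Spn, the sialomucin CD43, had 0.27 ± 0.26, and Galnt4, which starts O-linked sugars, 0.52 ± 0.56. Of 8 sheddase genes 5 were tested, with 0 called. Adam10 had a log2 fold change of -0.32 ± 0.36, Bace1 of -0.62 ± 0.92 and Rhbdf2, a partner of Adam17, of -0.31 ± 0.58.

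**Figure D5:**
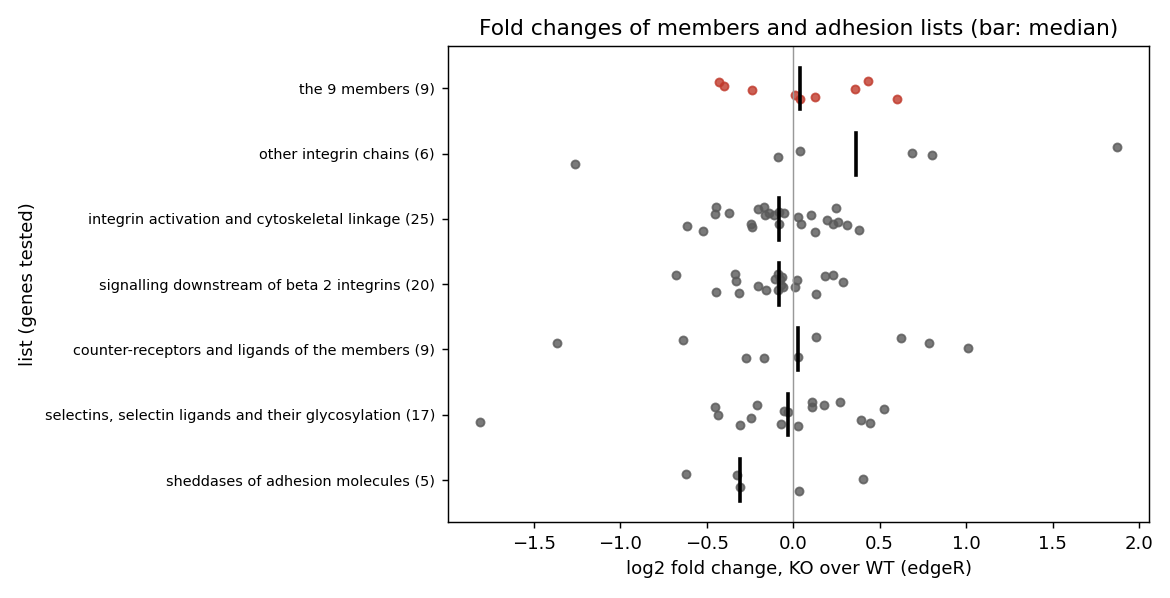
Log2 fold change of KO over WT (x axis) for the 9 members in red and for the genes tested in each of 6 adhesion lists in grey, with the median as a bar. The medians run from -0.31 for sheddases to 0.37 for other integrin chains, and no gene passed the test.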

How the data were processed

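The authors deposited 1 table of whole-number counts per Ensembl gene for 7 libraries, with no normalization. RSEM 1.2.3, DESeq2 and mm10 are named in the submitters' processing notes, with no role for each; RSEM gives estimated counts, so the deposited counts may be rounded. The annotation release and strand setting are not given in the sources used here. Symbols matched 51596 of 51789 genes, and coordinates are from GENCODE M21 (GRCm38, the build of mm10), 1-based.

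KO was compared with WT over all genes with edgeR 4.0.16 in R 4.3.3: genes kept by filterByExpr, scaled by TMM, tested two-sided by quasi-likelihood with robust dispersions, and adjusted after Benjamini-Hochberg over 12506 genes. CPM are on TMM sizes, and log2 CPM carry a prior count of 2. The SE comes from the F statistic, and the interval from the t distribution with the test's degrees of freedom. After the fit, the test was also run on data simulated from its own means and dispersions. The floor is 3 counts, 0.470 to 0.919 CPM in single libraries, and covers counting error only.

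Named genes were the 9 members, 3 genes per adhesion list with the smallest unadjusted p, and the 2 genes nearest to each member. Members and lists were chosen with earlier results of these data known. Alternatives were DESeq2 1.42.0, RLE scaling, other filters, left-out libraries, the replicate number and the stem of the sample code as terms; summing Itgam with Gm49368 was added after seeing the data.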

Additional observations from a re-analysis of the deposited data

Results flagged for a closer look

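Of 25 sets of 4 WT values examined (the 9 genes, 7 ratios between them and 9 marker sums), 2 held a library whose gap to its nearest neighbour exceeded Dixon's 95% critical value of 0.829 for 4 samples; chance flags about 1 in 20 such sets. Itgb2l stood at 11.7 CPM in WT 1, against 0 to 1.85 CPM in the other WT libraries (gap over range 0.841). WT 1 was also the WT library with the highest sum of neutrophil markers. The sum of stromal, endothelial and epithelial markers was 191 CPM in WT 2 and 67.5 to 84.6 CPM in the other WT libraries (gap over range 0.863). In WT 2 Col1a1 (85.3 CPM) and Col3a1 (55.4 CPM), collagen genes of fibroblasts, made up most of the sum.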

How the results depend on the processing

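No member and no gene of the adhesion lists was called under any of the alternative settings run. DESeq2 called 1 gene over the whole table, Impdh2-ps, which is no adhesion gene and was named after its value was seen. Of 125 alternative values over the 9 genes, 99 kept their sign and 26 turned, all without passing the test. Apart from left-out libraries, Itgal turned to -0.017 with RLE scaling, -0.019 without the low-count filter, -0.016 with DESeq2 and -0.065 with the replicate block. Itgb1 turned to -0.0055 with RLE scaling and -0.0060 with DESeq2. Itgb2 and Selplg turned to 0.30 each with the stem as a term, and Itgb7 to -0.57 with WT 2 and KO 3 both left out. With 1 library left out, the ranges were 0.21 to 1.10 for Itgam, -0.28 to 0.28 for Itgal, -0.34 to 0.91 for Itgax, -0.97 to 0.094 for Itga4, -0.49 to 0.73 for Itgb1, -0.61 to 0.043 for Itgb2, -0.41 to 0.77 for Itgb2l, -0.36 to 0.73 for Itgb7 and -1.0 to -0.026 for Selplg. Itgb2l could not be tested with the filter of 5 CPM in 3 libraries or without WT 1, where it fell below the filter. The cause of these turns was not tested. The labels link same-numbered libraries by nothing but the number. Correlations of their departures from the group means were 0.35, -0.22 and -0.18, which cannot settle whether they were paired. A fit with the replicate block called 0 genes. With the block the log2 fold change was 0.029 ± 1.21 (SE) for Itgam, 0.015 ± 1.02 for Itgax, 2.14 ± 2.26 for Itgb2l, -0.73 ± 1.32 for Itga4, 0.20 ± 0.77 for Itgb1, 0.36 ± 0.91 for Itgb7, -0.16 ± 0.87 for Selplg and -0.18 ± 0.48 for Itgb2. Of the 18 nearest genes, 15 were also named with a prior count of 0.5, and CPM on column totals moved each group mean by less than its SD. Counts of 0 to 55 limit Itgb2l and Itgb7.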

Other observations

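Genes of the adhesion lists differed in which libraries were lowest, and the examples here were chosen after their values were seen. KO 3 and WT 2 were the 2 lowest libraries for 36 of the 82 genes tested in the lists, or 43.9%, against 16.2% of all genes. Lyn, a Src family kinase, had 438, 354 and 22.8 CPM in KO, against 45.7 to 437 CPM in WT. Plcg2, the phospholipase C gamma 2 gene, had 96.6, 99.9 and 148 CPM in KO, against 107 to 135 CPM in WT, and was highest in KO 3, where Lyn was lowest. Rasgrp2, an exchange factor for Rap1, stayed between 33.2 and 40.1 CPM in KO and between 33.2 and 48.7 CPM in WT. Thy1, a T cell and stromal surface protein that Mac-1 can bind, had 638.8 CPM in KO 3 and 500.3 CPM in WT 2, its 2 highest libraries, and it was the only gene of the 82 tested in the lists with that order, against 6.25% of all genes.

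Itgad, the remaining alpha chain of beta 2 integrins, had 5 counts in WT 1 and 0 in the other 6 libraries. Madcam1, a ligand of alpha 4 beta 7, had 1 count in KO 2 and 0 elsewhere. Cd44, a hyaluronan receptor that also binds E-selectin, had 1371, 711 and 116 CPM in KO, against 1146, 375, 1008 and 459 CPM in WT.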
